A study of Mus musculus with 4 samples.

Results

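Clusters of open chromatin regions in mouse colonic organoids were described, that is stretches of the genome where many regions follow each other closely. Distinct regions on chromosomes 1 to 19 of the deposited peak list were joined where their edges lay within 12.5 kb, and clusters of 30 or more regions were kept. Clusters in 79.6 to 81.7 Mb of chromosome 10 and in 88.211 to 88.311 Mb of chromosome 1 were left out, which removed 8 clusters with 616 regions. There remained 259 clusters with 10544 regions, 9.30% of the 113404 distinct regions in the list. No X chromosome cluster reached 30 regions; the largest there held 19. The positions of the regions chose the members, so their number, span and density are given as a description.

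The organoids were grown from colon of wild-type mice with chronic colitis or of healthy controls. The labels give the cell type as colonic epithelium. Each kind was kept for 24 h with 10 µM T-5224, an inhibitor of the transcription factor AP-1, or with 0.1% DMSO, and was then frozen and thawed. The 4 groups (colitis with DMSO, colitis with T-5224, control with DMSO, control with T-5224) had 1 bulk ATAC-seq library each, all of 1 batch, and the study asked what AP-1 inhibition does to transcription factor binding. The deposited file is 1 list of peaks with no value per library, so colitis and control, or drug and solvent, could not be compared, and no spread between cultures can be given. The labels do not say from which of the libraries the peaks were called.

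ATAC-seq inserts adapters where DNA is not wrapped tightly, so its peaks mark promoters and enhancers that are accessible in the cells. Enhancers often lie in groups around genes that a cell type uses heavily, and such groups can stretch over introns of 1 long gene or over the spaces between genes. AP-1 is a family of Fos, Jun, ATF and Maf proteins that bind as pairs to a short DNA word and act in wound, stress and growth responses of epithelia. In a bulk assay, a region open in fewer cells and a region less open in every cell cannot be told apart.

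The clusters together spanned 32.0 Mb, of which 9.64 Mb (30.1%) lay inside regions. A cluster held a median of 38 regions (quartiles 33 and 44, largest 98) over a median span of 119 kb. Clusters of 10 to 29 regions, of which there were 2184 with 33304 regions, spanned a median of 52.0 kb. The density was a median of 0.325 regions per kb (quartiles 0.283 and 0.387) in the clusters of 30 or more, and 0.276 in those of 10 to 29. Values ran on across the threshold: the 20 clusters of 29 regions had a median of 0.313 per kb, and the 23 clusters of exactly 30 had 0.312. Neighbouring clusters on a chromosome were a median of 3979 kb apart, and 7 of 240 neighbouring pairs lay within 100 kb. Clusters held from 1.85% of the regions of chromosome 13 to 15.4% of those of chromosome 14.

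The label of colonic epithelium was set against marker genes. All 13 epithelial markers had a summit in or within 1000 bp of the gene, with a median strongest fold of 38.1, and 5 of them (the keratins Krt8 and Krt18, Cdh1, Vil1 and Hnf4a) were overlapped by a cluster. Of 9 leukocyte markers, 4 had a summit and 0 were in a cluster, and the median of their strongest folds, with genes without a summit at 0, was 0. Of 10 fibroblast, endothelial and muscle markers, 9 had a summit, 0 were in a cluster and the median strongest fold was 5.80. Of 6 markers of other gut segments, 4 had a summit and 1 was in a cluster: Gata4, with 1 member region in its bounds and a strongest fold of 13.7. Genes of the same length as these marker lists were in a cluster at 4.82% to 5.34%. At such shares, 0 of 9 and 0 of 10 do not set the leukocyte and fibroblast lists apart from other genes. Single markers of the other lists overlapped the epithelial ones. Cd68 of the leukocyte list reached 21.8-fold, Col1a1 of the fibroblast list 16.3-fold and Atp4a of the other gut segments 26.4-fold. The lowest epithelial value was 11.8-fold at Lgr5.

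Sequences are shown first for the microRNAs that lie in the clusters, since 4 of them are the best known genes of 2 clusters without any protein-coding gene. MicroRNAs are short RNAs that pair with messenger RNAs through their seed, bases 2 to 8, given here in capitals. Mature forms are RefSeq's on GRCm38.p6. The first lines are the miR-29 and let-7 genes of the gene-free clusters, which share a seed within each pair, then the miR-27 and miR-24 copies on chromosomes 8 and 13, whose seeds are the same on both, and then 2 pairs known from epithelium, miR-141 with miR-200c and miR-192 with miR-194.
Mir29a, mmu-miR-29a-3p: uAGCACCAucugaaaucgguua
Mir29b-1, mmu-miR-29b-3p: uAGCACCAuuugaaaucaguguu
Mirlet7c-2, mmu-let-7c-5p: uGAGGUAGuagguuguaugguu
Mirlet7b, mmu-let-7b-5p: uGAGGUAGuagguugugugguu
Mir27a, mmu-miR-27a-3p: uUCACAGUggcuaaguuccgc
Mir27b, mmu-miR-27b-3p: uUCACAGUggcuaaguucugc
Mir24-2, mmu-miR-24-3p: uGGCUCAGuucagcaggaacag
Mir24-1, mmu-miR-24-3p: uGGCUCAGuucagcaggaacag
Mir141, mmu-miR-141-3p: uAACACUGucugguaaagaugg
Mir200c, mmu-miR-200c-3p: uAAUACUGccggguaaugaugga
Mir192, mmu-miR-192-5p: cUGACCUAugaauugacagcc
Mir194-2, mmu-miR-194-5p: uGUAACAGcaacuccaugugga

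Promoters of 4 cluster genes follow, chosen after their values were seen because each holds the AP-1 word TGANTCA, the site of the factor that the drug inhibits. Each is the RefSeq window from 250 bases before to 50 after the start, 300 bases on GRCm38.p6, written in the direction of the gene with the word in capitals. Actn4 encodes an actin crosslinker (chr7:28962283-28962582, minus strand), Anxa2 a membrane-binding annexin (chr9:69453433-69453732, plus strand), F11r the tight junction protein JAM-A (chr1:171437311-171437610, plus strand) and Ezr the linker of actin to the apical membrane (chr17:6782731-6783030, minus strand). The word starts at −169 in Actn4, −95 in Anxa2, −109 in F11r and −32 in Ezr, counted from the start on which each window is set. For Actn4 that start is not the 5′ outer end of the gene, which is at 28962351.
Actn4: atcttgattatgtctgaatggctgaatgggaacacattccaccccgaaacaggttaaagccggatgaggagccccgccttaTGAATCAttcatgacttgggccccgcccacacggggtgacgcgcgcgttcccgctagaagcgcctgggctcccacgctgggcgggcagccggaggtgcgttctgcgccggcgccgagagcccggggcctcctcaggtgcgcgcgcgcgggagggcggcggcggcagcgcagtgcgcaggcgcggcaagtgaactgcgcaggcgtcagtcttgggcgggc
Anxa2: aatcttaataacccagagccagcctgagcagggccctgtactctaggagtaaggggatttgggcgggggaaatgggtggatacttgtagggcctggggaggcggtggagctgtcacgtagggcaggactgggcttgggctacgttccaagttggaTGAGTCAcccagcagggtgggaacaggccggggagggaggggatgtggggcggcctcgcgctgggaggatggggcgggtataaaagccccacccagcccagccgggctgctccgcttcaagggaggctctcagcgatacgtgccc
F11r: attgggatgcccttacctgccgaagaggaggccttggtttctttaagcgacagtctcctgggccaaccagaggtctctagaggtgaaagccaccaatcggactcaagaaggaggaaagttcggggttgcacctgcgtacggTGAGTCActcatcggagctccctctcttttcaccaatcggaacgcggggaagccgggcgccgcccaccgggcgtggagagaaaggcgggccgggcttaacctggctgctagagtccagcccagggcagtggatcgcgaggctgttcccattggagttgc
Ezr: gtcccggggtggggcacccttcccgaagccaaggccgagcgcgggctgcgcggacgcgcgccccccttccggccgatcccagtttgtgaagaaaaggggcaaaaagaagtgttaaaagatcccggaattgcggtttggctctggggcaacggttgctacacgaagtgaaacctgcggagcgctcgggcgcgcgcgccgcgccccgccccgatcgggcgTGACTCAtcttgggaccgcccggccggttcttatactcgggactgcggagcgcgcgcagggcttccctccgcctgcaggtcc

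All 4 windows were overlapped by a region. Fold here is the authors' enrichment over the expected background at a region's strongest summit, and the interval after it is an exact Poisson 95% interval of the pileup, which covers counting error only. The summit at the promoter reached 50.0-fold (45.4 to 54.9) for Actn4, 40.9-fold (36.8 to 45.4) for Anxa2, 79.6-fold (73.8 to 85.8) for F11r and 40.2-fold (36.1 to 44.7) for Ezr. For Anxa2 this was not the strongest summit of the region over the window, which reached 52.2-fold (47.5 to 57.2). The F11r value is among the 10 highest of all member regions. Read on both strands, 43 of 777 promoters of cluster genes held the word (5.53%), against 7.12% of all 16457 promoters in the table. Among promoters overlapped by a region the order was the other way, with 42 of 691 in clusters (6.08%) and 468 of 9457 outside (4.95%). In all promoters its share was 6.52% in clusters with few genes and 5.62% in those with many. A match is a description of letters and no sign that the factor binds there.

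The 259 clusters overlapped 1027 of 20665 protein-coding genes of chromosomes 1 to 19, a background of 4.97%, and 756 of these lay wholly inside a cluster. Genes in clusters were not longer than others: their median length was 13.5 kb, against 17.5 kb for all protein-coding genes. The share of genes in a cluster ranged from 3.07% for genes over 200 kb to 7.00% for genes of 5 to 10 kb. A cluster held a median of 3 genes, and the number ran from 0 to 21. Few genes is used below for 0 to 2 (124 clusters, 4883 regions, 166 genes), many for 10 or more (24 clusters, 1197 regions, 331 genes), and 3 to 9 lay between (111 clusters, 4464 regions, 530 genes).

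**Figure D1:**
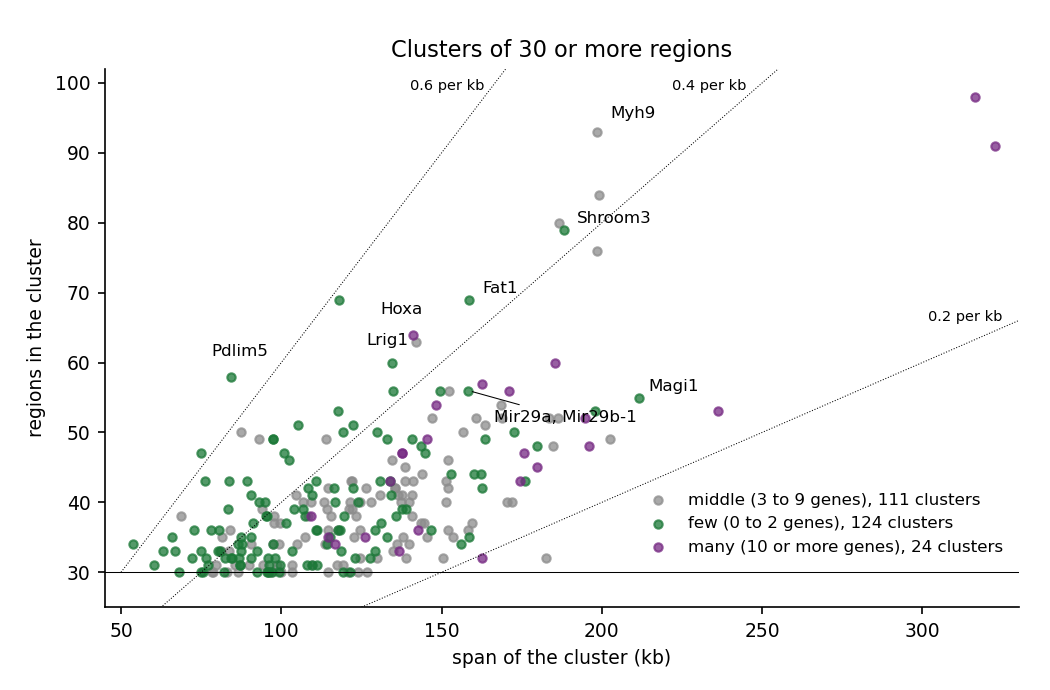
Span in kb (x axis) and number of regions (y axis) of each of the 259 clusters, coloured by the number of protein-coding genes; dotted lines mark equal density in regions per kb and the solid line the threshold of 30. Clusters with few genes reach 0.689 regions per kb, and the 2 clusters over 300 kb both have 10 or more genes.

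Clusters with few genes were the shorter and denser ones. Their median density was 0.359 regions per kb (quartiles 0.304 and 0.418), against 0.313 (0.273 and 0.357) with 3 to 9 genes and 0.299 (0.252 and 0.338) with many. The quartiles of few and many overlapped. The median span was 106 kb with few genes and 155 kb with many, and a cluster held a median of 36 and 47 regions. Clusters with exactly 1 gene, of which there were 68, had the median of 0.376 regions per kb, while the 7 without a protein-coding gene had 0.325. Over all 259 clusters, Spearman's rho between the number of genes and the density was −0.32, and between the number of genes and the span 0.39; these measures share the same coordinates. The order of few and many did not hold over strong regions alone. With only regions of −log10 q of at least 10, 7 clusters with few genes and 1 with many were left, and their medians were 0.227 and 0.305 per kb.

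**Figure D2:**
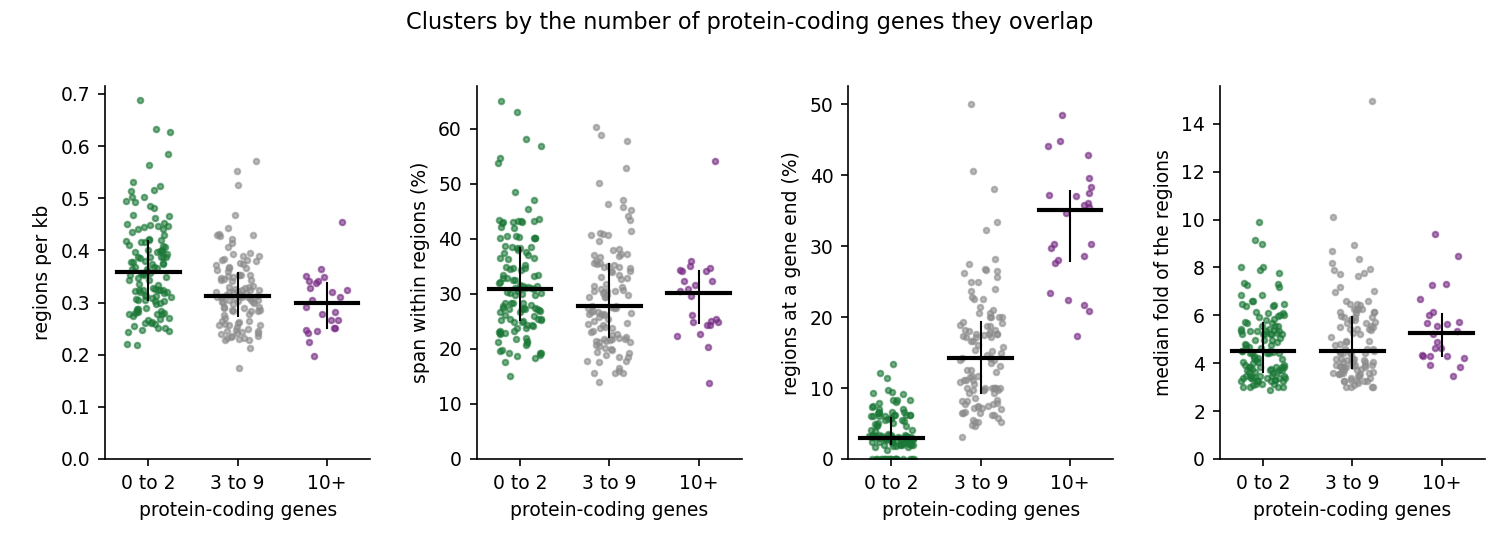
Each point is 1 cluster, grouped by the number of protein-coding genes it overlaps (x axis); the y axes give regions per kb, the share of the span inside regions (%), the share of regions within 1000 bp of a gene end (%) and the median fold of the cluster's regions. Thick lines are medians and thin lines quartiles; the median share at gene ends goes from 2.99% with 0 to 2 genes to 35.1% with 10 or more.

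Gene ends made up the clusters with many genes to a larger share. Counting a region as at a gene end when its strongest summit lay within 1000 bp of either outer end of a protein-coding gene, 13.8% of all regions in the list were at one. The share was 11.4% of member regions (Wilson 95% interval 10.8 to 12), 3.58% with few genes (3.10 to 4.14) and 31% with many (28.4 to 33.7). It follows in part from the number of genes, which adds ends. Regions inside a gene were 65.5% of members with few genes and 45.9% with many, and those between genes 30.9% and 23.1%. The rest of the list outside the clusters had 47.5% inside genes and 38.5% between them.

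Region strength differed more by place than by class of cluster. At gene ends the median fold was 20.2 with few genes, 12.8 with 3 to 9 and 14.5 with many. Inside genes it was 3.83, 3.71 and 3.71, and between genes 5.45, 5.80 and 5.68. Over all places the median was 4.29 with few genes and 5.22 with many, against 4.52 for all members and 4.99 for all other regions outside the clusters. The order of members and other regions turned when regions with −log10 q under 10 were left out, with medians of 10.7 and 8.70. Regions of clusters of 10 to 29 had a median of 5.33. Regions under 5-fold were 53.8% of members, 50.1% of the other regions and 50.5% of the whole list.

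Member regions were wider and more often had several summits than the rest. Their median width was 544 bp, against 476 bp elsewhere, and 31.7% (30.8 to 32.6) had more than 1 summit against 20.5% (20.2 to 20.7). Regions over 2000 bp were 9.50% of members and 4.83% of the others. Regions of clusters of 10 to 29 lay between, with a median width of 531 bp, 26.1% with more than 1 summit and 7.25% over 2000 bp. So these traits were in part shared with smaller clusters. The widest member region, 25308 bp, lay at the Rrbp1 and Dstn cluster on chromosome 2. Of the strongest 1000 regions in the list 109 were members (10.9%), near the 9.30% of all regions that were. None of the 14 regions above 100-fold was a member, but 14 regions are too few to set against that share.

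Dense clusters were made of weaker regions. Spearman's rho between regions per kb and the median fold of a cluster was −0.53 over the 259 clusters, which are built from the same regions. Among the 5 highest densities were those at Pdlim5 (0.689 per kb), Pmp22 (0.633), Mgat4a (0.626) and the Hoxb genes (0.571). Pmp22, a myelin and junction membrane protein, was the extreme: 30 of its 34 regions were under 5-fold, its median was 2.90-fold, and 1 region of 4699 bp reached 55.4-fold. Among the 5 lowest densities were those at Bfsp1, Rrbp1 and Dstn (0.175 per kb), Dmtn with Hr and Bmp1 (0.197), the mitochondrial calcium channel gene Mcu (0.218) and the chromatin remodelling gene Arid1b (0.221). Low density did not mean little open DNA in the first of these, where 45.8% of the span was inside regions; at Arid1b it was 15.1%.

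**Figure D3:**
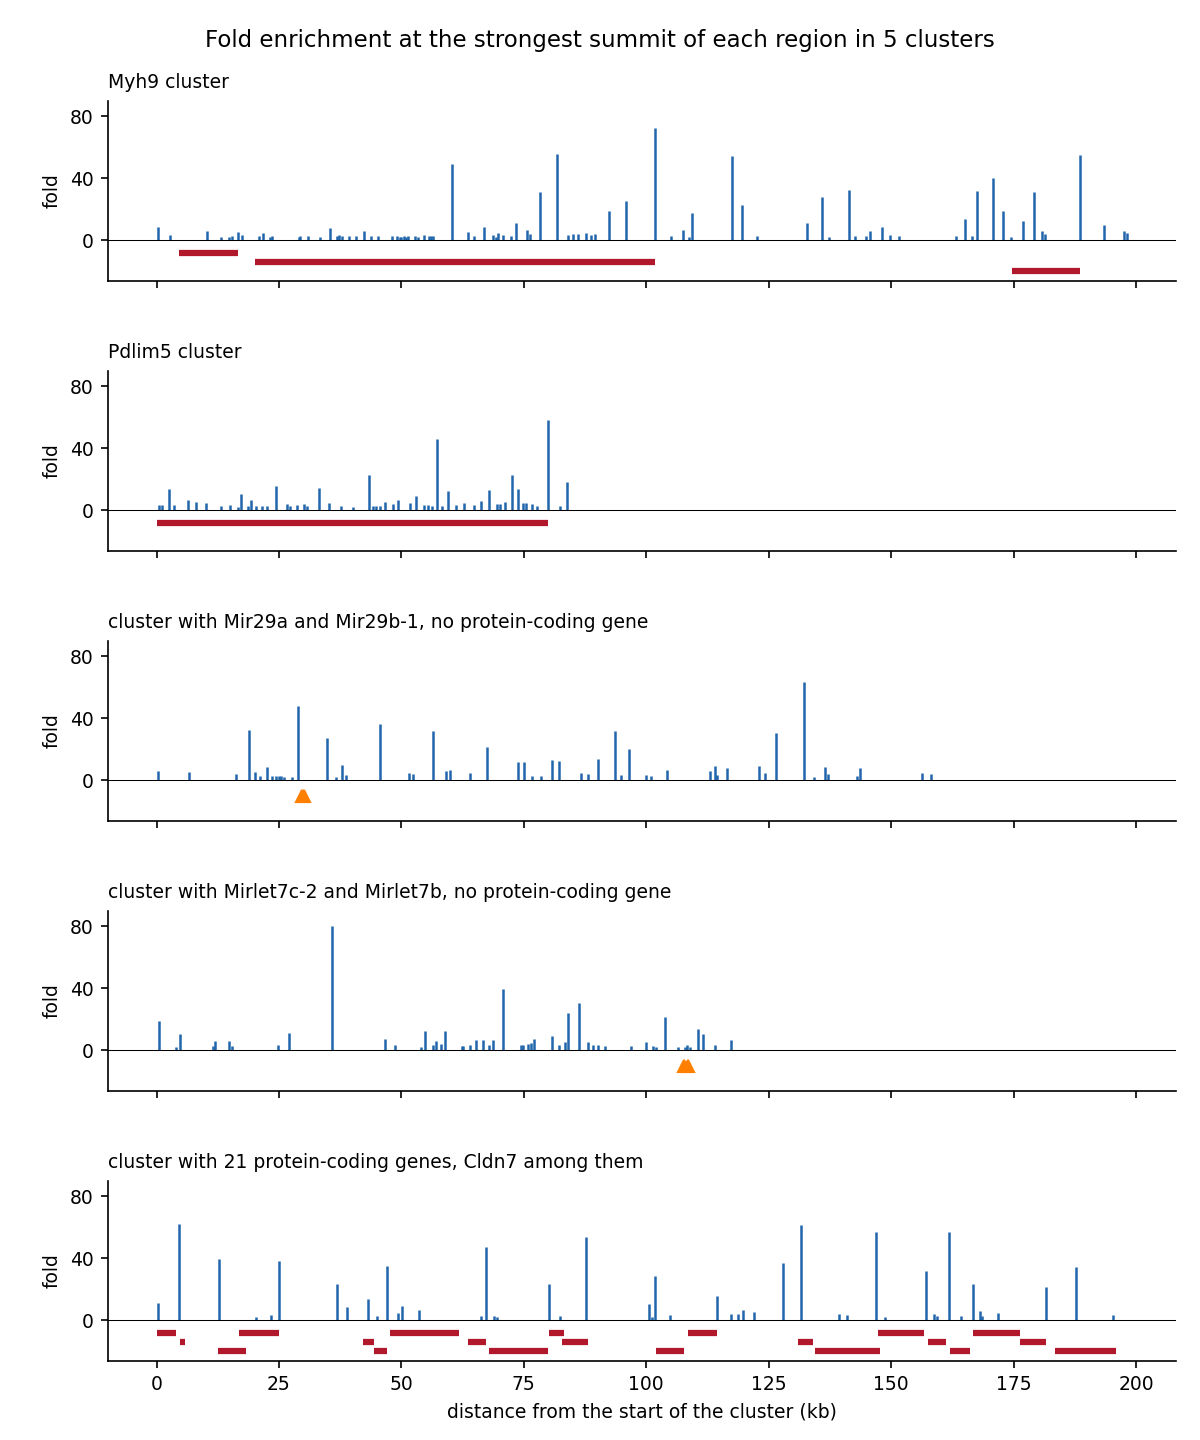
Fold at the strongest summit of each region (y axis) against the distance from the start of the cluster in kb (x axis) in 5 clusters; red bars below the axis are protein-coding genes and orange triangles microRNA genes of the gene-free clusters. The Pdlim5 cluster packs 58 regions into 84.2 kb, 38 of them under 5-fold, and the strongest regions of the cluster with 21 genes stand at gene ends.

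The strongest region of a cluster lay at a gene end in 119 of 259 clusters. With few genes this was so in 38 of 124 (30.6%, 23.2 to 39.2), and with many in 17 of 24 (70.8%, 50.8 to 85.1). Elsewhere the strongest region was inside a gene in 86 clusters and between genes in 54. Inside a gene need not mean away from a start, because the outer bounds hide inner starts: outside chromosome 18, whose promoters were not used here, 24 of 83 such regions covered a RefSeq promoter window. So did 94 of 118 at gene ends and 6 of 53 between genes. Of all member regions outside chromosome 18, 7.59% covered a promoter window, and their median fold was 27.9, against 4.17 for those that covered none.

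The cluster with the most regions, 98, lay on chromosome 11 (115660518 to 115976946, 316 kb) and overlapped 11 genes. Most summits in gene bounds fell in Myo15b, Llgl2, a polarity gene of the basolateral side of epithelial cells, and Recql5. Its strongest region, 1735 bp, reached 55.4-fold (50.6 to 60.6) inside a gene, and the next, at a gene end, 54.6-fold. The regions were low for the most part, with 59 of 98 under 5-fold and a median of 3.94. It ended just inside Itgb4, the integrin chain of hemidesmosomes, which held 1 member region.

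Next came the cluster of 93 regions on chromosome 15 (77740428 to 77938965), around Myh9, the heavy chain of nonmuscle myosin that contracts cortical actin. Its density was 0.468 per kb, and 41.4% of its 199 kb was open. The 5002 bp region at the 5′ end of Myh9 reached 72.3-fold (66.8 to 78.2). A region of 4498 bp lay 19.9 kb inside the gene at 55.4-fold. Another, of 1770 bp, lay at the end of Txn2, the mitochondrial thioredoxin, at 55.1-fold, and one lay 15.7 kb from any gene end at 54.5-fold. Beside these few strong regions, 58 of the 93 were under 5-fold.

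A cluster of 91 regions on chromosome 6 (72344567 to 72667329), covered 14 genes over 323 kb, among them Tcf7l1, a Wnt pathway repressor, and Capg, an actin capping protein. Its regions had a median of 5.56-fold, higher than in the Myh9 cluster (3.48), and 18 of them passed 20-fold. The cluster of Actn4, with 80 regions on chromosome 7 (28796479 to 28983270), also held Hnrnpl and Ech1, and Lgals4, a lectin of the gut epithelium. Its strongest region, 4330 bp at 67.9-fold, lay inside Actn4, 30.7 kb from the nearest gene end, and so stood above the Actn4 promoter itself.

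Shroom3, an actin regulator that constricts the apical side of epithelial cells, was the only gene of its cluster of 79 regions on chromosome 5 (92798076 to 92986346). Of the regions, 45 were under 5-fold. The strongest 4 reached 48.7-, 47.8-, 43.4- and 41.6-fold, and the first of these covered the promoter that RefSeq gives, 126 kb from the nearest outer end of the gene. The gene held 73 member regions, more than any other, of 84 regions in its bounds. The cluster covers only the later part of Shroom3, which sets where its members lie. Of all 84 regions, 13.1% lay in the first of 3 equal parts of the gene, 28.6% in the middle and 58.3% in the last. Plekha6, with 58 member regions, shared its cluster of 76 on chromosome 1 (133118187 to 133316583) with Golt1a and Ppp1r15b, the latter a phosphatase subunit of the stress response whose end carried the strongest region at 65.9-fold (60.6 to 71.5).

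Further clusters of 1 or 2 genes also held a few strong regions among many weak ones. Weak regions are common in the whole list, where 50.5% were under 5-fold. Fat1, a giant cadherin of epithelial junctions, had 69 regions on chromosome 8 (44852386 to 45011068), 48 of them under 5-fold. Its strongest region, 5078 bp, reached 45.2-fold, and 3 regions before the gene, 7.93 to 54.7 kb from it, had 20.8- to 37.3-fold.

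Lrig1, a brake on EGF receptor signalling that marks stem cells of the gut, was alone in a cluster of 60 regions on chromosome 6 (94623002 to 94757507). Its promoter region stood far above the others at 74.2-fold (68.6 to 80.2); the next reached 29.1-fold, 18.6 kb from the gene. Pdlim5, a scaffold of actin stress fibres, had its promoter region at 58.1-fold and another at 46.1-fold 22.8 kb inside the gene (chromosome 3, 142315724 to 142399931). Magi1, a scaffold of tight junctions, had 55 regions on chromosome 6 (94081199 to 94292867) at 0.260 per kb. There the region at the 5′ outer end, at 34.2-fold, was not the highest: a region 126 kb inside the gene reached 44.5-fold (40.2 to 49.2). Magi1 is 608 kb long and the cluster covers its first part only, so its 54 members lie there by choice. Of all 74 regions in the gene, 73.0% lay in the first of 3 equal parts, 16.2% in the middle and 10.8% in the last.

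Tmprss2, a membrane protease of epithelia, was alone in a cluster of 56 regions on chromosome 16 (97548988 to 97698375). Its median, 6.09-fold, lay above the upper quartile of clusters with few genes (5.68), 13 regions passed 20-fold and 54.7% of the span was open. Its strongest region was 9052 bp wide, 46.5 kb inside the gene, at 56.0-fold. Aopep, an aminopeptidase gene, and Fancc, a DNA repair gene, shared 56 regions on chromosome 13 (63230921 to 63365635), which also held the Mir23b, Mir27b and Mir24-1 genes. Aopep, 361 kb long, held 88 regions, of which the 49 members are those of its last part, where the cluster lies. Of all 88, 15.9% lay in the first of 3 equal parts, 27.3% in the middle and 56.8% in the last.

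**Figure D4:**
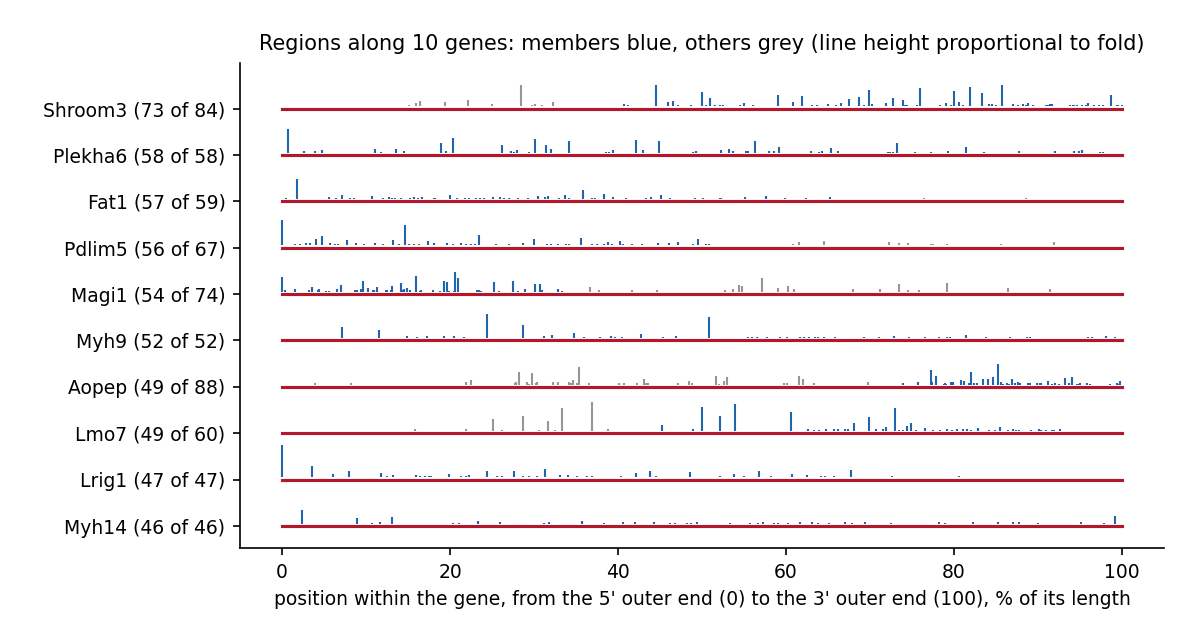
Regions along 10 genes, members in blue and other regions in grey, with the number of members and of all regions after each name; the x axis runs from the 5′ outer end (0) to the 3′ outer end (100% of the length), and line height is proportional to fold at the strongest summit. The cluster bounds set where members lie in Magi1, Aopep and Shroom3, which also hold grey regions, while all 52 regions of Myh9 and all 58 of Plekha6 are members.

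Altogether 110 genes held 20 or more member regions in their bounds and 57 held 30 or more, while 122 of the genes in clusters held no member summit. Beside Shroom3 and Plekha6, high numbers were found for Fat1 (57), Pdlim5 (56), Magi1 (54), Myh9 (52), Aopep and Lmo7 (49 each) and Lrig1 (47). Per length, Myh9 was densest of these with 0.637 member regions per kb of gene. Lmo7, a LIM protein of epithelial junctions, carried regions up to 66.4-fold. Over 91 such genes with 20 or more member regions and a strand in the promoter table, 40.9% of 2970 regions fell in the first of 3 equal parts of the gene, 36.4% in the middle and 22.7% in the last. With the other regions of these genes, 3359 in all, the shares were 39.6%, 35.4% and 25%. For 271 genes outside the clusters with 20 or more regions the shares were 39.5%, 32.6% and 27.9%; those genes were longer, with a median of 211 kb against 101 kb.

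Homeobox genes gave the cluster with many genes that had the highest density. The Hoxa cluster on chromosome 6 (52135117 to 52276140) held 64 regions over 141 kb and 11 genes, with 0.454 regions per kb, a median of 7.25-fold and 54.2% of the span open. Its strongest region, near Hoxa5, reached 46.5-fold. The Hoxb genes, 7 of them, lay in a cluster of 50 regions on chromosome 11 (96232762 to 96320299) whose strongest region reached only 27.8-fold (24.4 to 31.6). Hox genes set position along the body axis. In all, 18 of 39 were in a cluster (46.2%, against 5.48% of genes of like length), all of them Hoxa or Hoxb genes that lie side by side. Other families differed widely: 5 of 23 claudins (21.7%), 5 of 53 keratins (9.43%), 9 of 91 genes with Rpl or Rps symbols (9.89%), 2 of 30 integrins (6.67%), 7 of 388 Zfp zinc finger genes (1.80%) and 0 of 1104 olfactory receptors. Genes of the same length as these families were in a cluster at 4.34% (integrins) to 6.14% (keratins). These families were picked with values known.

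The cluster with the most genes, 21, lay on chromosome 11 (69833828 to 70029710) with 48 regions at 0.245 per kb. It covered Dvl2, a relay of Wnt signals, Elp5 and Acap1, and also Cldn7, a claudin of the gut epithelium. Its 4 strongest regions all stood at gene ends, those of Tmem256 (62.1-fold), Cldn7 (61.3-fold), Ctdnep1 (57.3-fold) and Phf23 (56.8-fold). The region at Cldn7 was 8133 bp wide. In this cluster 17 of 48 regions passed 20-fold (35.4%), against 13 of 79 at Shroom3. That share was the highest among clusters with many genes. Their median was 20.5%, and that of clusters with few genes was 14.3%. Pooled over regions, 20.9% with many genes and 14.2% with few passed 20-fold, against 13.9% of all regions in the list.

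In the gene-rich clusters that follow, the strongest region also stood at a gene end. Fewer of their regions passed 20-fold, with 10 of 52, 12 of 56 and 8 of 47. One on chromosome 2 (25143947 to 25338708) with 19 genes had 52 regions, and the region at Tubb4b, a tubulin, reached 82.7-fold (76.7 to 89.0). One on chromosome 9 (107514491 to 107685598) with 18 genes, Gnai2 and Sema3b among them, had 56 regions and its strongest at Gnai2, a G protein subunit, at 67.1-fold. One on chromosome 17 (35102463 to 35278297) with 18 genes, Prrc2a and Bag6 among them, had 47 regions, and 38.3% of them were at a gene end.

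The 7 clusters without a protein-coding gene held 294 regions. The largest, with 56 regions on chromosome 6 (31033004 to 31191342), lay 74.0 kb from Klf14 and 207 kb from Mkln1 and covered Mir29a, Mir29b-1 and the long noncoding RNA gene Lncpint. One region of 2206 bp covered both microRNA genes (the pair with seed AGCACCA above) at 48.0-fold (43.5 to 52.8). The strongest, 63.3-fold (58.1 to 68.8), lay 103 kb further on, and 1 region was 10271 bp wide. A cluster of 53 regions on chromosome 15 (85598838 to 85716457) lay between Wnt7b, 17.0 kb away, and Ppara, 18.5 kb away, and covered Mirlet7c-2 and Mirlet7b.

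In the let-7 cluster the microRNA genes did not carry the strong regions. Those at Mirlet7c-2 and Mirlet7b reached 2.20-fold (1.35 to 3.41) and 3.83-fold (2.65 to 5.35). A region of 1241 bp with a single summit, 52.8 kb from the end of Wnt7b, a Wnt ligand, reached 80.1-fold (74.3 to 86.3), and the next 39.7-fold. That is the strongest member region that lay between genes.

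The other gene-free clusters were smaller. On chromosome 5 (64359960 to 64535910) 43 regions lay 8.47 kb from Tbc1d1, with the strongest at 53.0-fold. On chromosome 11 (113032130 to 113148683) 42 regions lay 244 kb from Sox9, a transcription factor of crypt stem cells, and 96.2 kb from Slc39a11, with the strongest at 51.6-fold. On chromosome 4 (89348749 to 89487808) 39 regions lay 37.7 kb from Cdkn2b, a cell cycle inhibitor, and had the highest median of the 7, 8.0-fold. On chromosome 15 (36870734 to 36980251) 31 regions lay 67.7 kb from Ywhaz and 16.8 kb from Zfp706. The last, on chromosome 2 (167747345 to 167839775), had 30 regions and no strong one: its highest value, 16-fold, was the lowest maximum of all 259 clusters. Which gene any of these regions acts on was not tested.

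Of 1136 microRNA genes on chromosomes 1 to 19, 63 lay in 40 of the clusters, which is 5.55% (4.36 to 7.03). A region overlapped 38 of the 63 (60.3%), against 163 of 1073 outside the clusters (15.2%); a cluster holds many regions by choice. Mir141 and Mir200c, of the miR-200 family that maintains the epithelial state, lay under 1 region of 27.7-fold (24.3 to 31.4) on chromosome 6. Mir192 and Mir194-2, which are abundant in gut epithelium, lay under 1 region of 32.2-fold (28.6 to 36.2) on chromosome 19. The chromosome 13 group of Mir23b, Mir27b and Mir24-1 lay under a region of 15-fold (12.5 to 17.8), and its relatives Mir23a, Mir27a and Mir24-2 on chromosome 8 under one of 3.94-fold (2.75 to 5.49). In RefSeq both groups encode the same miR-24-3p and the same miR-27 seed, as the sequences above show, while their 2 regions differ in strength. The miR-23 forms are not compared here, and whether either group is transcribed in these organoids was not tested.

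The strongest member regions were mostly at gene ends, 7 of the top 10. The highest, 84.8-fold (78.7 to 91.1), was 4566 bp wide at Rhpn2 and ranked 40 in the whole list. Esrra, a nuclear receptor of energy metabolism, and LOC114841036 were in 1 cluster on chromosome 19 and had 83.1- and 84.4-fold. Inside genes stood a region in Chd2, a chromatin remodeller, at 83.5-fold, and one in Por, the electron donor of cytochrome P450, at 82.4-fold. The others were at Tubb4b, Abhd11 (80.7-fold), F11r and Vcl (79.5-fold), and the let-7 cluster region near Wnt7b. These values overlap in their intervals.

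**Figure D5:**
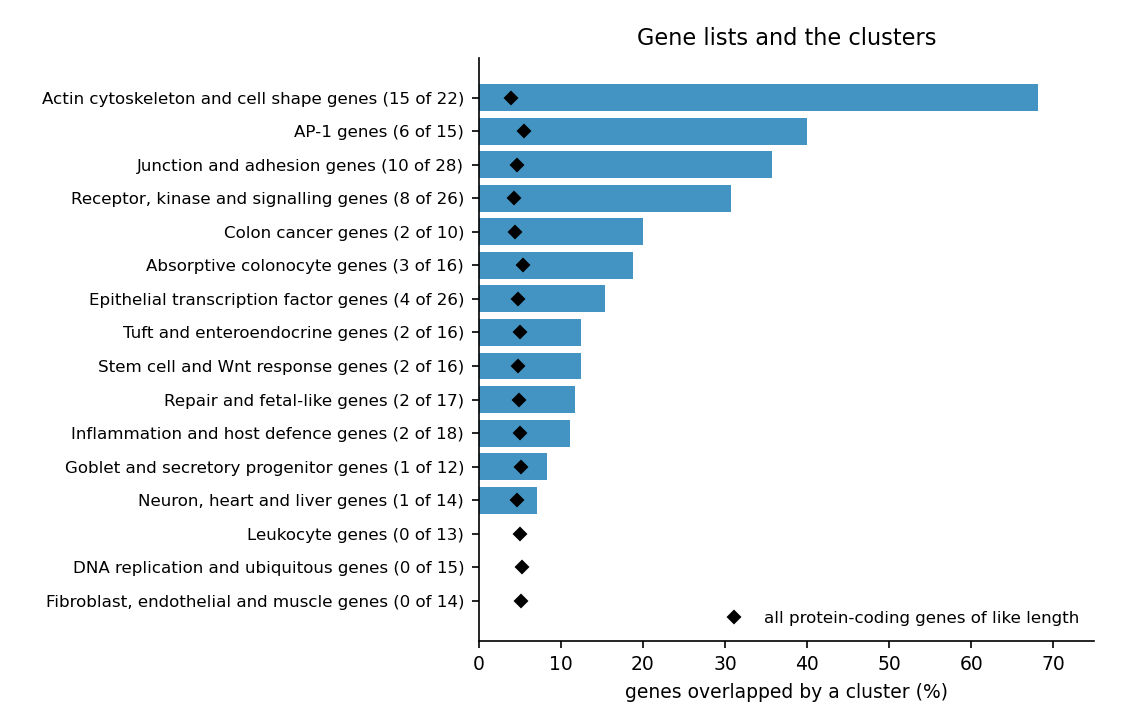
Share of each gene list that a cluster overlaps (bars, %), with the number of genes after each name; diamonds mark the share among all protein-coding genes of like length. Actin cytoskeleton genes stand at 68.2%, and leukocyte, replication and fibroblast lists at 0.

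Gene lists were counted by role, beside the 4.97% of all protein-coding genes. The lists were drawn up with earlier results of these data known, so their counts are no independent evidence. Of 277 listed genes on chromosomes 1 to 19, 57 were in a cluster. Actin cytoskeleton and cell shape genes led with 15 of 22 (68.2%), against 3.88% of genes of like length. Vcl, the vinculin of adhesion sites, was alone in 50 regions with its promoter at 79.5-fold, and Tns3, a tensin of focal adhesions, in 44. The least of the 15 was Tpm1, a tropomyosin, with 15 member regions.

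Among AP-1 genes, 6 of 15 were in a cluster, against 5.52% of genes of like length. Fosl1 had 7 member regions and a strongest summit of 35.9-fold, Maff 6 and 49.0-fold, Mafk 6 and 54.3-fold, and Mafg 2 and 31.4-fold. Jund, with 1 member region, and Fosb, with 0, were the others. All but Mafk (5 genes) and Maff (4 genes) lay in clusters of 11 to 15 genes, so the clusters hold many other genes than the AP-1 ones. Among the AP-1 genes in no cluster, Jun, Atf3, Junb, Fos and Fosl2 had strongest summits of 50.8- to 76.2-fold. Jdp2, Batf, Batf2 and Batf3 had 5.56- to 16.3-fold. Junction and adhesion genes had 10 of 28 (35.7%): Fat1, Ctnnd1 (p120 catenin, 30 member regions) and Cdh1 (E-cadherin, 26) were among those with the most. The claudins Cldn3 and Cldn4 shared a cluster of 35 regions whose median, 10.1-fold, was more than 2 times that of all members.

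Receptor, kinase and signalling genes had 8 of 26 (30.8%), led by Wwc1 (34 member regions), a Hippo pathway scaffold, Egfr, the EGF receptor (30), and Smad3, a TGF-beta effector (26). Smad7, its inhibitor, had 16. Colon cancer genes had 2 of 10: Tcf7l2, the Wnt effector, with 25 member regions of 48 in the gene, and Ctnnb1, beta-catenin, with 11. Absorptive colonocyte genes had 3 of 16, Vil1, a brush border actin bundler (19), Hnf4a, a nuclear receptor of enterocytes (18), and Ceacam1 (6). Epithelial transcription factors had 4 of 26, led by Runx1 (39), Ppard (25) and Tcf7l2; Ovol1 had 2.

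The remaining lists were closer to the background. Stem cell and Wnt response genes had 2 of 16 (Lrig1 and Notum), tuft and enteroendocrine genes 2 of 16 (Trpm5 and Sh2d6), repair and fetal-like genes 2 of 17 (Anxa2 and Plaur) and inflammation genes 2 of 18 (Relb and Lcn2). Lcn2, the antimicrobial lipocalin that rises in colitis, was in a cluster of 52 regions, but its own region was at 2.32-fold. Goblet and secretory genes had 1 of 12, Creb3l1, and the neuron, heart and liver list 1 of 14, Tnnt2. DNA replication and ubiquitous genes had 0 of 15 although all 15 had a summit, with a median strongest fold of 46.3. Leukocyte genes had 0 of 13 and fibroblast, endothelial and muscle genes 0 of 14.

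Promoters of cluster genes were open more often than others. A region overlapped the window of 88.9% (86.5 to 90.9) of 777 cluster genes with a sequence, against 60.3% (59.5 to 61.1) of genes outside and 61.7% of all; a gene in a cluster has regions nearby by choice. They were richer in CG steps, with a median of 19 against 14 in 300 bases. Among open promoters the median was 21 in both. Open promoters in clusters with few genes had a median of 25 and those in clusters with many 19. The word GGGCGG of SP and KLF factors, read on both strands, was in 64.5% of promoters of cluster genes and 47.3% of all. Among open promoters the shares were 69.2% in clusters and 67.0% outside. The ETS word CCGGAAGT was in 5 of 138 promoters with few genes (3.62%) and 23 of 249 with many (9.24%), against 5.44% of all. Among open promoters it was in 4 of 125 with few genes (3.20%) and 23 of 219 with many (10.5%), in 6.80% over all clusters and in 8.49% outside. Words for CRE, NFY, HNF4, TEAD, GRHL, NRF1 and YY1 were counted too, so ETS is 1 of several words read. For example, the TEAD word was in 16.7% of promoters with few genes and 16.9% with many, and the YY1 word in 1.45% and 4.42%.

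RefSeq promoter windows of 4 genes that were alone in their cluster follow, with CG in capitals. They were chosen after their values were seen. Lrig1 (chr6:94700096-94700395, minus strand) has 35 CG steps, Pdlim5 (chr3:142395647-142395946, minus strand) 22, Fat1 (chr8:44949958-44950257, plus strand) 2 and Runx1 (chr16:92826025-92826324, minus strand) 2. The first 2 were overlapped by regions of 74.2- and 58.1-fold. The RefSeq window of Fat1 had only 2.67-fold (1.71 to 3.98), and no region overlapped that of Runx1, a blood and epithelial transcription factor with 39 member regions and a strongest value of 55.6-fold elsewhere in the gene. Each gene is given 1 window here, and other starts of these genes were not used. The Fat1 window lies inside the gene, whose 5′ outer end is at 44933100. The 45.2-fold region of Fat1 had its summit 2.14 kb from that end. The Runx1 window lies outside its cluster, which ends at 92701428. The low values thus belong to the windows picked, and whether the genes differ at their other starts was not tested.
Lrig1: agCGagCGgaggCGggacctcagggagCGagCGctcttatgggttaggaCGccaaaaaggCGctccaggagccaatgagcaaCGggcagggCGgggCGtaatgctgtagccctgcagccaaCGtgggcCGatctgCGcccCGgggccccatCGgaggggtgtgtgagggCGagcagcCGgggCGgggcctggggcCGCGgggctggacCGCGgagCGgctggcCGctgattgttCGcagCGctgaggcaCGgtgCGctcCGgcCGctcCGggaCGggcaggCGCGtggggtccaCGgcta
Pdlim5: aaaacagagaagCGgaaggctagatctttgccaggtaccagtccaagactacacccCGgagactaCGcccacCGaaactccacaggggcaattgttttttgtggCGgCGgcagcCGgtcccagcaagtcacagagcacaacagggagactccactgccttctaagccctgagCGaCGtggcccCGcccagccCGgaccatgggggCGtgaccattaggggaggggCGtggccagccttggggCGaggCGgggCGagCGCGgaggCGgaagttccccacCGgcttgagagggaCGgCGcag
Fat1: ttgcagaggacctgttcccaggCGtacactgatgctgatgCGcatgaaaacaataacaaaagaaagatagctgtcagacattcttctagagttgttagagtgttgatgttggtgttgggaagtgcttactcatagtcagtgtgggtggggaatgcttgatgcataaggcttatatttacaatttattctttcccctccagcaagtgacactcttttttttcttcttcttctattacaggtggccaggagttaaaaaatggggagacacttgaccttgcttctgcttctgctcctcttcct
Runx1: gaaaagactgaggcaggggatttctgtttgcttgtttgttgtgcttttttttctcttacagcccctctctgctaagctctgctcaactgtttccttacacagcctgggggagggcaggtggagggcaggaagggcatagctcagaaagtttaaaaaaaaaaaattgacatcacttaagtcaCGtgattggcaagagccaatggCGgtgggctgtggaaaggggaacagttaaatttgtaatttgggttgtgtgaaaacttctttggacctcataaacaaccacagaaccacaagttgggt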

How the data were processed

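The 4 libraries were bulk ATAC-seq. Per the submitters' processing notes, Bowtie2, MACS2 and mm10 were used; no version, threshold or read handling is stated there. The deposited file is 1 narrowPeak list for the series. The authors' fold enrichment is a linear ratio to background at a summit. The lowest of the deposited −log10 q values was 1.51. In 100% of records the deposited score equals that q-value multiplied by 10 and rounded down. All are values of peaks, not of samples, and depth per library is unknown. Every fold was a whole number times 0.116 (largest deviation 0.000218 of a step), so the pileup at a summit was recovered as that number minus 1, the lowest being 17. Exact Poisson 95% intervals of the pileup and Wilson 95% intervals of shares cover counting error only, and copies of 1 molecule would make them too narrow.

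Records that share a region were merged, keeping the strongest summit. The cluster at the chromosome 1 window was left out whole. Genes, promoters and microRNAs came from RefSeq tables on GRCm38.p6, the assembly of mm10; genes are outer bounds without exons. Python 3.11.15, pandas 2.3.3, scipy 1.17.1 and matplotlib 3.10.9 were used, and the joining and counting steps were tested on simulated data. No test was made, since there are no values per library. Members and lists were chosen with earlier results of these data known. The rule named the 10 clusters with the most regions, over all and among those with few genes, the 5 with the most genes, the 6 largest without a gene, the 5 highest and 5 lowest densities, up to 3 genes a cluster, up to 4 genes a list, the 10 genes with the most regions and the 10 strongest regions; some clusters and genes that it names are not reported here. Other genes and clusters named were chosen after their values were seen. Motifs in region sequences were not searched, as no genome was used. Alternatives for the joining distance, the minimum, the q-value, the gene classes and the windows are given in the closing section.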

Additional observations from a re-analysis of the deposited data

How the results depend on the processing

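No paired analysis was possible because the list holds no value per library and each group has 1 library. For the same reason no library could be left out. With 10000 bp as the joining distance there were 175 clusters, 6969 regions, 556 genes and 9 clusters with many genes, and with 15000 bp 368 clusters, 15761 regions, 1745 genes and 44. With 5000 bp there were 46 clusters, 1820 regions, 78 genes, 39 clusters with few genes and 0 with many. With −log10 q of at least 10 there were 13 clusters, 440 regions, 36 genes, 7 clusters with few and 1 with many. A minimum of 20 regions gave 678 clusters, 20385 regions, 2160 genes and 388 clusters with few, and a minimum of 40 gave 114, 5645, 558 and 48. Few as 0 to 1 and many as 5 or more gave 75 clusters each. The median density with few genes was 0.397 per kb at 10000 bp, 0.322 at 15000 bp, 0.542 at 5000 bp, 0.227 with strong regions and 0.317 with a minimum of 20; with many genes it was 0.251 at 15000 bp. Few stayed above many in 5 of 7 settings. The difference was −0.078 with strong regions only, on 1 cluster with many genes, and 5000 bp left none to compare. Within 500 and 2000 bp of a gene end lay 8.18% and 18.7% of members, 2.62% and 6.43% with few genes, 22.3% and 49.2% with many, and 10.8% and 20.1% of other regions. Over regions with −log10 q of at least 10 the median folds were 10.7, 9.97, 13.9 and 8.70 in the same order, so members then stood above the others. Many stayed above few in shares and folds. Bounds extended by 10000 bp left 57 listed genes in clusters. Regions within 12.5 kb were already joined, so only a gene without a region near a cluster edge could have been added.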
